A study of Mus musculus with 18 samples.

Results

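The response to dexamethasone, a synthetic glucocorticoid, was measured in C2C12 myotubes that had received 10 µM ginsenoside Rc. C2C12 is a mouse myoblast line whose cells fuse into myotubes, here after 5 days in 2% horse serum, and ginsenoside Rc is a triterpenoid saponin from ginseng. The libraries were chosen by their titles: 3 carried 10 µM ginsenoside Rc and 200 µM dexamethasone (36 h in all, a 12 h pre-treatment followed by 24 h of dexamethasone) and 3 carried 10 µM ginsenoside Rc alone (36 h), so that 6 of the 18 libraries of the series entered the comparison. The other groups, also of 3, were vehicle (0.1% DMSO, 36 h), 20 µM ginsenoside Rc (36 h), and 200 µM dexamethasone for 24 h after 12 h with 0.1% DMSO or with 20 µM ginsenoside Rc. All 6 groups share the 1 cell line and the same differentiation. Whether the ginsenoside stayed in the medium during dexamethasone, and whether replicate libraries are separate cultures, is not stated in the labels, and p-values here reflect the spread among these libraries alone, part of which may be technical.

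Glucocorticoids enter the cell and bind the glucocorticoid receptor, which is held in the cytosol by heat shock proteins and immunophilins. The hormone-bound receptor moves to the nucleus, binds DNA as a dimer at palindromic response elements, and raises transcription of nearby genes, while it restrains others by acting on inflammatory transcription factors. In skeletal muscle, prolonged glucocorticoid exposure is known for wasting: ubiquitin ligases and autophagy are induced, insulin-like growth factor signalling is blunted, and the muscle shifts from glucose to fat as fuel. Dexamethasone is a common way to model that wasting in C2C12 myotubes.

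Library totals of the 6 libraries ran from 40.1M to 45.0M expected counts with dexamethasone and from 32.4M to 41.7M without it. Mitochondrial transcripts took 1.35 to 1.41% of counts without dexamethasone and 1.85 to 1.89% with it. Replicates differed from each other by more than counting noise (chi-square per degree of freedom 5.08 to 11.1), so none was a copy of another. Replicate 2 of the 20 µM ginsenoside group stood apart from its group (84 to 85.6 by the same measure). It enters the shared estimate of spread, and the calls without it are given beside the first count. Myotube genes were high in all 6 libraries: the creatine kinase Ckm lay at 317, 333 and 336 CPM (counts scaled to library size) without dexamethasone and at 565, 595 and 576 CPM with it, and the fusion protein Mymk lay between 1174 and 1467 CPM. The defining adipocyte genes Lep and Cfd had 0 counts in all 6 libraries, Adipoq, Plin1 and Cidec had at most 2, and the leukocyte and endothelial genes Ptprc, Adgre1, Pecam1 and Kdr had at most 4. Others of the 14 endothelial and macrophage markers were counted at low levels: 9 were tested, and their median was -0.675. Cd68, a lysosomal protein, rose from 17, 29 and 30 counts to 55, 50 and 46, and Csf1r (17, 10 and 19 counts, then 5, 8 and 8), Cdh5 (6, 13 and 8, then 3, 4 and 3) and Vwf (-1.36) fell, of which 1 fell without replicate 1 of the dexamethasone group. The sum of the 14 was 7.83 to 8.65 CPM without dexamethasone and 6.95 to 7.05 CPM with it. Fibroblast and osteoblast genes were present, as is reported under their groups.

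Of 15436 genes tested, 6820 (44.2%) passed an adjusted p of 0.05 in edgeR's quasi-likelihood test with Benjamini-Hochberg adjustment. Of these, 3264 were higher with dexamethasone (21.1% of genes tested) and 3556 lower (23%). These 2 shares are to be held beside each count of list members below. Without composition scaling the split was 2449 higher against 4374 lower, or 35.9% higher of those called against 47.9%. The median gene then lay at -0.07 on the log2 scale in place of -0.00. Without replicate 2 of the 20 µM group 8219 genes passed, which included 6809 of the 6820. Values of the 2 groups did not overlap for 9219 genes (59.7%), a share to hold beside each statement below that the groups did not overlap. Changes of more than 2-fold were fewer: 569 genes rose and 1029 fell by that much, 180 and 362 by more than 4-fold, and 92 and 116 by more than 8-fold. The 569 genes that rose over 2-fold held 1.34 to 1.4% of counts without dexamethasone and 4.23 to 4.38% with it, while the 1029 that fell over 2-fold went from 3.89 to 4.15% down to 1.46 to 1.61%.

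**Figure D1:**
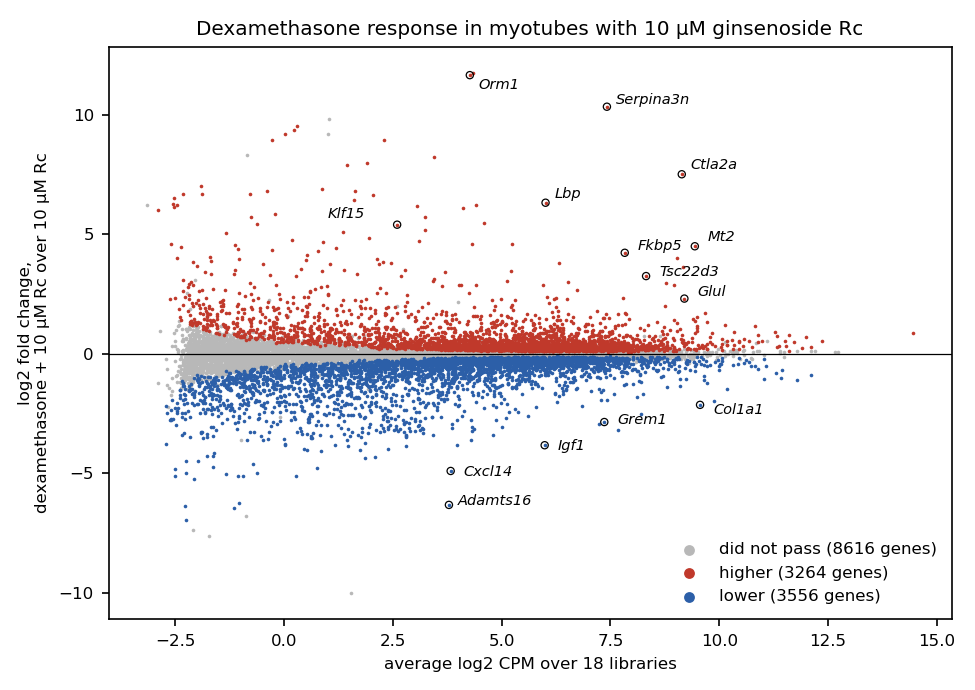
Log2 fold change of dexamethasone with 10 µM ginsenoside Rc over 10 µM ginsenoside Rc alone (vertical axis) against the average log2 CPM over 18 libraries (horizontal axis), 1 point per gene for 15436 genes, red where higher and blue where lower at an adjusted p below 0.05. The 3264 higher and 3556 lower genes are similar in number, and the rises reach further from 0 than the falls.

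The largest rises were in secreted plasma proteins of the acute phase. Serpina3n, a serine protease inhibitor, was at 0.242, 0.220 and 0.304 CPM without dexamethasone and at 347, 315 and 353 CPM with it, a log2 fold change of 10.35 ± 0.12 (SE; edgeR, adjusted p = 2.44e-20). The lowest library with dexamethasone stood far above the highest without it. Its neighbour Serpina3m, on the same stretch of chromosome 12, had 0, 0 and 1 counts without dexamethasone and 1864, 1380 and 1877 with it, at least 514-fold higher against a floor of 3 counts per library. The orosomucoid genes, which encode the alpha-1-acid glycoproteins of plasma, moved likewise: Orm1 went from 1, 0 and 0 counts to 1527, 1422 and 1853 (at least 484-fold higher), Orm2 was at least 93-fold higher and Orm3 at least 78-fold higher. The haemoglobin scavenger haptoglobin (Hp) rose from 0.121, 0 and 0.0935 CPM to 22.2, 22.1 and 20.3 CPM. Lbp, the lipopolysaccharide binding protein, rose from 2.12, 1.23 and 1.54 CPM to 127, 129 and 130 CPM (6.33 ± 0.12, edgeR, adjusted p = 2.31e-17). The Serpina3 and Orm genes belong to families of close copies among which reads are divided by estimation. The division between Serpina3m and Serpina3n, or among Orm1, Orm2 and Orm3, is therefore less certain than the sum.

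Over the whole list of acute phase and complement genes, 19 of 23 tested members rose and 3 fell, with a median log2 fold change of 2.28 against -0.00 over all genes tested. The receptor subunit Il6ra (2.28), the interleukin 1 antagonist Il1rn (2.87) and the central complement protein C3 (4.69) were among those that rose. The initiating complement proteases C1ra (-0.22) and C1s1 (-0.30) and the membrane regulator Cd59a (-0.24) fell, though 1 fall in place of 3 was called without replicate 1 of the ginsenoside group or replicate 1 of the dexamethasone group, and the oncostatin receptor Osmr, at -0.08, did not pass.

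Other genes among the 12 largest rises had no common role. Ctla2a, which encodes a cathepsin inhibitor-like protein, rose from 6.59, 6.27 and 5.99 CPM to 1174, 1080 and 1198 CPM (7.52 ± 0.13, edgeR, adjusted p = 1.11e-17). The phenol sulfotransferase Sult1a1 went from 0, 2 and 0 counts to 198, 182 and 238 (at least 62.2-fold higher), and Mettl21e from 0, 2 and 0 counts to 458, 440 and 380 (at least 129-fold higher). The steroid sulfate transporter Slc10a6 rose from 0, 0.147 and 0.0702 CPM to 8.58, 7.22 and 8.04 CPM, and the secreted protein Angptl7 from 0.121, 0.0490 and 0.0468 CPM to 5.89, 7.12 and 5.90 CPM.

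The receptor gene Nr3c1 was at 111, 108 and 107 CPM without dexamethasone and 95.8, 95 and 90.4 CPM with it, a log2 fold change of -0.21 ± 0.046 (edgeR, adjusted p = 0.000924). The groups did not overlap, but the drop was small, and against a minimum change of 1.2-fold it did not pass. Of 22 tested members of the receptor and chaperone list, 6 rose, 3 fell and 13 did not pass (median 0.08). The immunophilin Fkbp5 (chr17:28399094-28517527, minus strand), which binds the receptor complex and lowers its hormone affinity, rose from 23.6, 23.1 and 23 CPM to 447, 438 and 428 CPM, a log2 fold change of 4.23 ± 0.052 (edgeR, adjusted p = 3.44e-20). Hsd11b1, the enzyme that regenerates active glucocorticoid from its inactive ketone, rose from 42.6, 37.0 and 32.4 CPM to 66.2, 63.4 and 65.4 CPM (0.80 ± 0.083). The other rises were in Ncoa1 (0.16), Ncoa3 (0.55), Ep300 (0.41) and Hsp90ab1 (0.13), and the cochaperone Dnajb1 (-0.53) fell.

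Direct glucocorticoid targets, genes known in many tissues to carry receptor binding sites, rose in 25 of 34 tested cases and fell in 7, with a median log2 fold change of 1.49. Tsc22d3, which encodes the glucocorticoid-induced leucine zipper that restrains inflammatory signalling, rose from 60.2, 62.0 and 61.1 CPM to 613, 553 and 588 CPM (3.26 ± 0.058, edgeR, adjusted p = 1.11e-17). The clock repressor Per1 rose from 32.3, 29.1 and 31.0 CPM to 124, 120 and 121 CPM (1.98 ± 0.090). Klf15, a Kruppel-like factor that drives amino acid catabolism in muscle, rose from 0.302, 0.245 and 0.257 CPM to 11.7, 11 and 11.6 CPM (5.41 ± 0.14), and its relative Klf9 from a mean of 40.1 to 119 CPM (1.57 ± 0.087). Zbtb16, a zinc finger repressor, had 0 counts in each library without dexamethasone and 67, 82 and 80 with it, at least 23.2-fold higher. The kinase Sgk1, which acts in ion transport and cell survival, rose from 42.1, 44.8 and 43.8 CPM to 145, 138 and 137 CPM (1.69 ± 0.057). Groups did not overlap for any of these genes. The members that fell were Timp3 (-2.50), Il1r1 (-1.51), Fam107a (-1.28), Cdkn1c (-1.14), Gadd45g (-0.79), Angptl4 (-0.63) and Cdkn1a (-0.22). Bcl6 (0.12) and Rasd1 (0.99) did not pass.

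The receptor's element is an inverted repeat of a 6-base motif around a 3-base spacer. To show where that motif lies near induced genes, promoters were searched on both strands for AGAACA, whose reverse complement is TGTTCT, and for the 15-base palindromic form, AGAACA followed by any 3 bases and TGTTCT, which always contains the 6-base motif as well. Windows of 300 bases, 250 before to 50 after the start, were taken from RefSeq (GRCm38.p6) and matched 11031 of the 15436 tested genes by symbol. The 250 bases before the start of 5 induced genes follow, each on its sense strand 5′ to 3′, with the 6-base motif in capitals. They were chosen after their values were seen, to show the palindrome beside promoters with 1 or 2 exact matches to the 6-base motif (imperfect copies were not searched for and stay in lower case): Sgk1 is chr10:21993640-21993889 (plus strand), Sult1a1 chr7:126676419-126676668 (minus), Serpina3n chr12:104406458-104406707 (plus), Tsc22d3 chrX:140600523-140600772 (minus) and Trim63 chr4:134314870-134315119 (plus).
Sgk1: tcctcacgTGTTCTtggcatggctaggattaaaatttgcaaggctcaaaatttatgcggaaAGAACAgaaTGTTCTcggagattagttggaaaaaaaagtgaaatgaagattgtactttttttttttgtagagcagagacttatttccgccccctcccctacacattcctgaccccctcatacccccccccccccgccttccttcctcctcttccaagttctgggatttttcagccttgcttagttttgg
Sult1a1: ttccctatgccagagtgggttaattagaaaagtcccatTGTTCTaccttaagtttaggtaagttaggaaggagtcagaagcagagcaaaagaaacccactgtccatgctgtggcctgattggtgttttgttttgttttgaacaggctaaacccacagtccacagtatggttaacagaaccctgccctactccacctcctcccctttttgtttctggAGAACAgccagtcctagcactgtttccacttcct
Serpina3n: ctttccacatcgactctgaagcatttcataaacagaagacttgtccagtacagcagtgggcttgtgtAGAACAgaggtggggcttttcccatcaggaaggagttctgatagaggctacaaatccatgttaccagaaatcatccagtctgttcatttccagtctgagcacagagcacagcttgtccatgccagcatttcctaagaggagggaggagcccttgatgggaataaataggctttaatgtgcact
Tsc22d3: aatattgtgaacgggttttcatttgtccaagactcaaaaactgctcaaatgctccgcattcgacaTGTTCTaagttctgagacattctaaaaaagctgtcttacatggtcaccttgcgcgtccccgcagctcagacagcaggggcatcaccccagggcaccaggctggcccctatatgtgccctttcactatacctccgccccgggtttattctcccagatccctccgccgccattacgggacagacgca
Trim63: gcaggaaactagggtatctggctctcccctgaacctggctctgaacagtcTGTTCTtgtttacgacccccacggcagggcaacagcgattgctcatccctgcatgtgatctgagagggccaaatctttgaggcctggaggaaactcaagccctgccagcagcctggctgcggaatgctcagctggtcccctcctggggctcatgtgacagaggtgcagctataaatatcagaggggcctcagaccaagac

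In the Sgk1 stretch, which lies before one of that gene's starts, 3 motifs are in capitals, and the last 2 of them form the palindrome. It was the sole palindrome in the windows of the tested genes (1 gene, 0.00907%). Among matched genes, the 6-base motif was in a window of 15.2% of those tested, 14.9% of those that rose, 15.4% of those that fell and 15.4% of those that did not pass. Among genes that rose over 2-fold the share was 20.9% (82 of 393 matched), over 4-fold 22.6% (28 of 124) and over 8-fold 27.7% (18 of 65). Among genes that fell over 2-fold it was 16.5% (123 of 745) and over 4-fold 18.3% (47 of 257). Of the direct targets, 7 of 28 matched genes (25.0%) held it. A gene counted if any of its windows held the motif. Direct targets had a mean of 1.64 windows per gene against 1.28 over all matched genes. The part of that in their share was not tested. Windows of strongly induced genes were also poorer in G and C (median 54.3% for rises over 8-fold, 57.7% for rises over 2-fold, 57.8% for falls over 2-fold and 60.4% for all tested), and the part of that in the shares was not tested. A match describes letters in a window, not binding.

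The muscle ubiquitin ligases best known from wasting rose. Fbxo32, which encodes atrogin-1, rose from 106, 99.8 and 100 CPM to 356, 329 and 285 CPM, a log2 fold change of 1.66 ± 0.11 (edgeR, adjusted p = 1.23e-09). Trim63, which encodes the ligase MuRF1 that marks myosin for degradation, rose from 36.8, 34.6 and 34.3 CPM to 96.4, 87.5 and 74.0 CPM (1.29 ± 0.14, adjusted p = 8.55e-07, edgeR). For both genes the lowest library with dexamethasone lay above the highest without it. The transcription factors that induce these ligases went apart: Foxo3 rose from 127, 120 and 124 CPM to 239, 235 and 222 CPM (0.91 ± 0.058), and Foxo1 fell from 72.5, 73.4 and 73.7 CPM to 50.5, 51.1 and 55.7 CPM (-0.48 ± 0.093, adjusted p = 0.000356, edgeR). The ligase Cblb, which targets the insulin receptor substrate, rose from 43.2, 42.0 and 45.1 CPM to 102, 104 and 106 CPM (1.26 ± 0.10). Over the list of ligases and FOXO factors, 13 of 26 tested members rose, 1 fell and 12 did not pass (median 0.19), with 2 falls without replicate 2 of the 20 µM ginsenoside group and 3 without composition scaling.

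Myostatin (Mstn), the secreted inhibitor of muscle growth, was near the floor at 0.0907, 0.0490 and 0.0702 CPM without dexamethasone and 0.160, 0.178 and 0.389 CPM with it, where 3 counts equal 0.0685 to 0.0906 CPM. Its log2 fold change of 1.78 ± 0.62 passed (edgeR, adjusted p = 0.0254), but not without replicate 2 (adjusted p = 0.0894, edgeR) or 3 (0.0674) of the ginsenoside group or replicate 3 of the dexamethasone group (0.161).

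Of 37 proteasome subunits and activators 4 rose, 2 fell and 31 did not pass, and their median of 0.02 became -0.04 without composition scaling. The falls were 5 without replicate 2 of the 20 µM ginsenoside group, with limma voom, and with only the compared groups fitted, where 7 rose, and 2 rose without composition scaling. Psme4, the nuclear activator PA200, rose from 300, 290 and 284 CPM to 370, 374 and 354 CPM (0.33 ± 0.046), and the immunoproteasome cap gene Psme1 fell from a mean of 24.5 to 18 CPM (-0.45 ± 0.078). Autophagy and lysosome genes rose in 21 of 37 cases and fell in 2 (median 0.24), each by less than 2-fold. The falls were 4 without replicate 2 of the 20 µM group, without composition scaling or with only the compared groups fitted, and 5 with limma voom. The lysosomal hexosaminidase Hexa rose from 215, 215 and 205 CPM to 341, 319 and 310 CPM (0.61 ± 0.056), and Atg9a, the membrane protein that seeds autophagosomes, from 140, 147 and 142 CPM to 192, 189 and 190 CPM (0.41 ± 0.041).

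**Figure D2:**
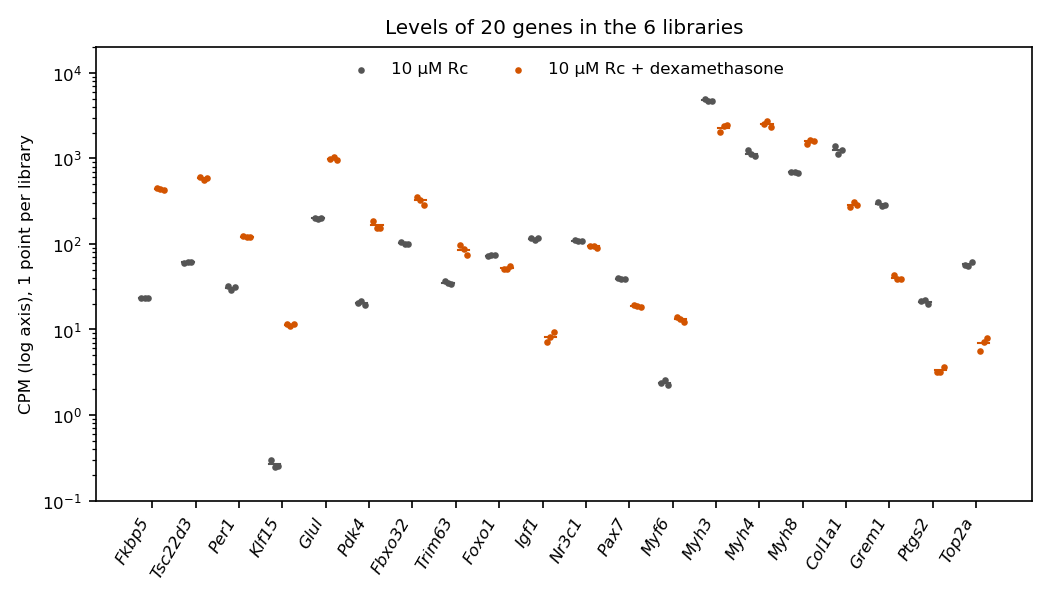
CPM on a log axis for 20 genes in the 6 libraries, 1 point per library and a bar at the mean of 3, grey for 10 µM ginsenoside Rc and orange for 10 µM ginsenoside Rc with dexamethasone. The groups do not overlap for any gene shown, and the spread within a group is small beside the distance between groups for all but Nr3c1, Foxo1 and Trim63. The groups of Nr3c1 and Foxo1 lie close together.

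Igf1 (chr10:87858265-87937042, plus strand), the insulin-like growth factor that maintains muscle mass, fell from 117, 111 and 118 CPM to 7.10, 8.27 and 9.23 CPM, a log2 fold change of -3.82 ± 0.20 (edgeR, adjusted p = 3.45e-10). The highest library with dexamethasone was far below the lowest without it. Its binding proteins Igfbp3 (-1.96) and Igfbp4 (-1.63 ± 0.055, from a mean of 118 to 38.1 CPM) fell, while Igf2 rose by 0.69 and the receptor Igf1r, at -0.03, did not pass. Inside the pathway, the regulatory subunit Pik3r1, which in excess dampens the kinase, rose from 78.3, 70.1 and 75.8 CPM to 167, 177 and 161 CPM (1.17 ± 0.052), and the adaptor Grb10, which inhibits the insulin and IGF receptors, rose from 0.696, 0.588 and 0.655 CPM to 8.77, 9.64 and 9.26 CPM (3.83 ± 0.14). Irs1 fell (-0.51) and Irs2 rose (0.88). The list of 31 genes split into 10 higher and 14 lower, with a median of -0.03. That median was -0.09 without replicate 2 of the ginsenoside group, -0.08 without replicate 3 of the dexamethasone group and -0.10 without composition scaling.

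Some inhibitors of mTOR, the kinase that drives protein synthesis, rose and others fell. Ddit4, also called REDD1, rose from 33.9, 31.3 and 32.7 CPM to 81.4, 80.0 and 74.2 CPM (1.27 ± 0.099), Deptor from 493, 483 and 479 CPM to 931, 962 and 945 CPM (0.96 ± 0.068), and Sesn1 from a mean of 42.4 to 114 CPM (1.42 ± 0.11). The related Sesn2 (-0.43), Sesn3 (-0.45) and Ddit4l (-0.64) fell. Rragd, a GTPase of the amino acid sensing arm that activates mTOR, rose from a mean of 10.3 to 27.3 CPM (1.40 ± 0.068). Of 30 tested members of the mTOR list 12 rose and 7 fell, and the median of 0.06 became -0.01 without composition scaling.

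Of 42 ribosomal protein genes 0 rose and 1 fell, Rpl4 (-0.11 ± 0.044, edgeR, adjusted p = 0.047), with a median of -0.10. That count depended on the fit, since 13 fell with limma voom, 14 when only the compared groups were fitted and 11 without replicate 2 of the 20 µM ginsenoside group, and Rpl4 did not pass without any one of the 6 compared libraries.

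Of 38 tested genes of amino acid handling 12 were higher and 8 lower, beside 21.1% and 23% over all genes tested. Their median was 0.06, or -0.01 without composition scaling. Glutamine synthetase, Glul, which builds the amino acid that wasting muscle exports, rose from 199, 195 and 202 CPM to 994, 1026 and 950 CPM (2.32 ± 0.054, edgeR, adjusted p = 3.64e-16). Proline dehydrogenase Prodh (2.26) and the branched-chain amino acid transporter Slc43a1 (1.68) rose. The cytosolic branched-chain aminotransferase Bcat1 fell from 17.4, 18.9 and 21.2 CPM to 4.36, 4.96 and 4.73 CPM (-2.04 ± 0.11), and the mitochondrial one, Bcat2, rose (0.53).

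Pdk4, the kinase that shuts off pyruvate dehydrogenase, rose from 20.5, 21.4 and 19.5 CPM to 185, 154 and 154 CPM (3.01 ± 0.13, edgeR, adjusted p = 4.41e-12). The acyl-CoA synthetase Acsl1 rose from 52.4, 57.3 and 56.8 CPM to 113, 119 and 104 CPM (1.01 ± 0.060), and Cpt1b, which carries acyl groups into muscle mitochondria, rose by 1.03. Of 36 tested fatty acid oxidation genes 14 rose and 4 fell (median 0.12). Lipid droplet genes rose in 16 of 26 cases and fell in 5 (median 0.45): the droplet coat protein Plin4 went from 1.15, 0.931 and 1.31 CPM to 54.2, 48.5 and 48.3 CPM (5.47 ± 0.10), the triglyceride lipase Pnpla2 rose by 1.07, and its inhibitor G0s2 fell from 42.0, 36.6 and 39.3 CPM to 7.92, 7.58 and 9.19 CPM (-2.25 ± 0.089). Fewer of these falls held without single libraries (2 in place of 5 without replicate 1 of the dexamethasone group, and 3 without replicate 1 or 2 of the ginsenoside group or replicate 2 of the dexamethasone group). Of 35 glucose genes 11 were higher and 6 lower, beside 21.1% and 23% over all genes tested. The insulin-regulated transporter Slc2a4 (GLUT4) rose from 4.05, 3.99 and 3.58 CPM to 17.3, 14.7 and 13.3 CPM (1.97 ± 0.12), and the glycogen branching enzyme Gbe1 from a mean of 20.0 to 32.0 CPM (0.68 ± 0.048).

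Each of the 26 tested genes of sterol synthesis and its control rose, with a median log2 fold change of 0.98 and a range of 0.23 to 1.73. Hmgcs1, which makes the HMG-CoA that enters the pathway, rose from 219, 216 and 214 CPM to 610, 535 and 482 CPM (1.33 ± 0.16, edgeR, adjusted p = 2.75e-06). Idi1, an isomerase further along the pathway, rose from 101, 109 and 104 CPM to 417, 332 and 292 CPM (1.73 ± 0.20). In both genes the dexamethasone libraries were further apart than the ginsenoside libraries and in the same order, and the groups did not overlap. In fatty acid synthesis 10 of 15 tested genes rose and 2 fell (median 0.41): the synthase Fasn rose (1.23), as did Acss2 from a mean of 28.4 to 49.1 CPM (0.79 ± 0.092), while the regulator Srebf1 fell from 133, 136 and 136 CPM to 103, 104 and 97.4 CPM (-0.41 ± 0.044).

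Genes of the respiratory chain encoded in the nucleus rose in 20 of 54 cases and fell in 0 (1 without replicate 3 of the dexamethasone group), with a median of 0.19. The ATP synthase subunit Atp5b rose from 1283, 1422 and 1286 CPM to 1684, 1601 and 1699 CPM (0.32 ± 0.061), and the complex I subunit Ndufa10 from a mean of 108 to 136 CPM (0.34 ± 0.053). The count was sensitive, at 8 without composition scaling, 12 without replicate 1 of the ginsenoside group and 35 without replicate 2 of the 20 µM ginsenoside group, which is outside the comparison but shares its estimate of spread. All 13 transcripts made inside the mitochondrion had estimates between 0.35 and 0.75, of which 4 passed. The oxidase subunit mt-Co1 was at 4069, 4298 and 4260 CPM without dexamethasone and 6236, 5973 and 6335 CPM with it (0.55 ± 0.20, edgeR, adjusted p = 0.0332), and it did not pass without any one of the 6 libraries. Between 0 and 1 of the 13 passed without any one of the 6 compared libraries, and 9 without replicate 2 of the 20 µM group. Of 30 genes of mitochondrial biogenesis 16 rose and 0 fell (9 and 1 without composition scaling, and 1 fall without replicate 3 of the dexamethasone group or replicate 2 of the 20 µM group), among them the coactivator Ppargc1a, from 2.72, 2.96 and 2.76 CPM to 5.16, 5.01 and 4.87 CPM (0.83 ± 0.11), the energy sensing kinase subunit Prkaa2 (0.84 ± 0.054) and the deacetylase Sirt1 (0.56 ± 0.071).

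Contractile genes divided by isoform. The embryonic myosin heavy chain Myh3 fell from 4976, 4735 and 4708 CPM to 2047, 2365 and 2450 CPM (-1.07 ± 0.085, edgeR, adjusted p = 7.28e-09). The perinatal chain Myh8 rose from 693, 683 and 681 CPM to 1471, 1654 and 1595 CPM (1.2 ± 0.053), and the fast adult chain Myh4 from 1235, 1124 and 1057 CPM to 2537, 2764 and 2346 CPM (1.16 ± 0.070). These chains are close copies in 1 cluster on chromosome 11 and reads could be divided unevenly among them, though no library of either group crossed into the other. Of 17 myosin genes 6 rose and 2 fell (median 0.13), and of 50 other sarcomere genes 26 rose and 10 fell (median 0.22). Mybpc1, the slow myosin binding protein C, rose from 117, 116 and 116 CPM to 370, 390 and 352 CPM (1.67 ± 0.058) and the small heat shock protein Hspb7 from a mean of 268 to 591 CPM (1.14 ± 0.071). The stretch-responsive genes Ankrd1 (-0.91) and Xirp2 (-0.89) and the cardiac actin Actc1 (-0.46) fell.

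Calcium handling genes rose in 14 of 26 cases and fell in 3 (1 without replicate 1 of the dexamethasone group or replicate 3 of the ginsenoside group), with a median of 0.25. The fast calcium pump Atp2a1 rose from 1768, 1845 and 1786 CPM to 3343, 3396 and 3350 CPM (0.90 ± 0.048, edgeR, adjusted p = 3.3e-11). At the neuromuscular junction 9 of 16 genes rose and 4 fell, with 4 rising without composition scaling and 5 without replicate 2 of the ginsenoside group. Acetylcholinesterase, Ache, fell from 8.47, 7.52 and 7.62 CPM to 2.65, 3.26 and 3.11 CPM (-1.39 ± 0.13).

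The myogenic transcription factors did not move together. Myog was at 654, 748 and 696 CPM without dexamethasone and 588, 574 and 677 CPM with it, and Myod1 at 181, 191 and 200 CPM and 192, 199 and 222 CPM. Both sets of values overlapped, and neither gene passed: the 95% interval was -0.37 to -0.01 for Myog (edgeR, adjusted p = 0.0883) and -0.03 to 0.23 for Myod1 (0.231). Myog passed in 4 alternatives: without replicate 3 of the dexamethasone group (-0.265, edgeR, adjusted p = 0.0303), without composition scaling (-0.259, 0.0185), with limma voom (-0.224, 0.00724) and with only the compared groups fitted (-0.191, 0.0359). Myf6, the factor of mature fibres, rose from 2.36, 2.57 and 2.22 CPM to 13.9, 13.2 and 12.4 CPM (2.46 ± 0.11), and Myf5, a factor of myoblasts, rose as well (1.31). The satellite cell factor Pax7 fell from 39.6, 39.4 and 39.0 CPM to 19.2, 18.8 and 18.3 CPM (-1.07 ± 0.067). Of 30 tested myogenic factors 6 rose and 10 fell (median -0.12).

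Cell division genes fell nearly without exception. All 36 tested mitosis genes were lower, with a median of -2.95 and a range of -3.46 to -0.99, and 32 of 35 replication genes were lower with 1 higher (median -1.18). Top2a, the topoisomerase of dividing cells, fell from 57.2, 54.9 and 61.5 CPM to 5.55, 7.17 and 7.93 CPM (-3.07 ± 0.19, edgeR, adjusted p = 1.83e-09), and the proliferation marker Mki67 from 48.6, 40.4 and 49.0 CPM to 2.81, 4.53 and 5.85 CPM (-3.39 ± 0.28). The kinetochore protein Cenpf fell from a mean of 25.4 to 3.35 CPM (-2.92 ± 0.16) and the DNA ligase Lig1 from 19.5 to 5.29 CPM (-1.88 ± 0.094). Unfused mononuclear cells are known to remain in C2C12 cultures, and in bulk libraries fewer cells of a type and less RNA per cell cannot be told apart. Of 18 myoblast markers 11 fell and 4 rose, and their summed level moved from 2490 to 2560 CPM down to 2090 to 2180 CPM. Cyclin D1 (Ccnd1, -1.28) fell, but so did the division inhibitors Cdkn1c (from a mean of 12.2 to 5.55 CPM, -1.14 ± 0.099) and Cdkn1a (-0.22), and Cdkn1b rose (0.35).

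**Figure D3:**
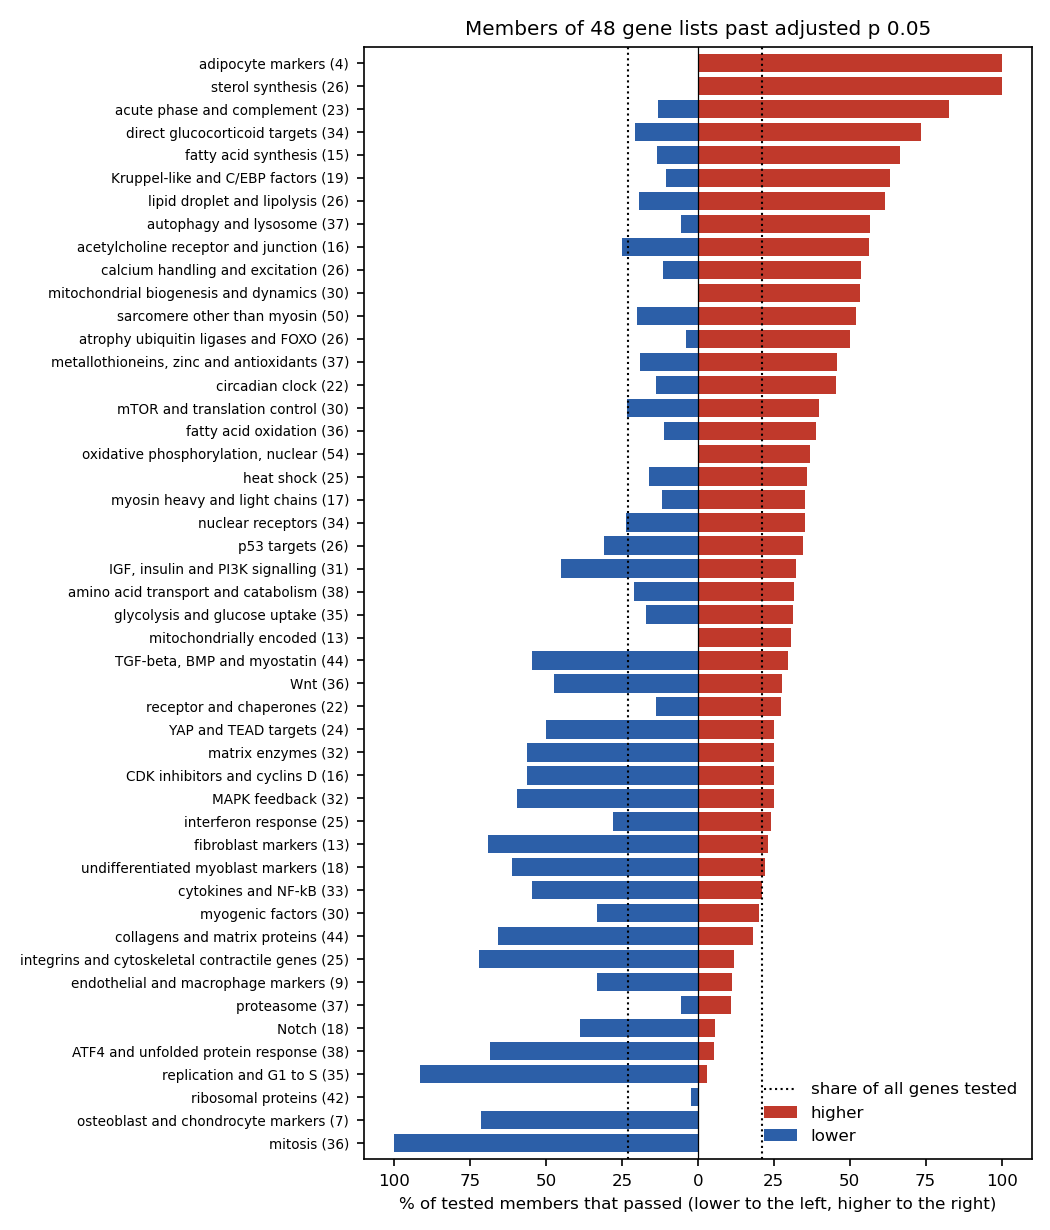
Share of the tested members of each of 48 gene lists that were higher (red, to the right) or lower (blue, to the left) with dexamethasone at an adjusted p below 0.05, with the number tested in brackets and dotted lines at the shares over all genes tested, 21.1% and 23%. Sterol synthesis (26 of 26 higher) and mitosis (36 of 36 lower) stand at the ends, and proteasome and ribosomal protein genes have the shortest bars.

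Matrix genes were mostly lower, with named exceptions. Of 44 tested collagens and matrix proteins 29 fell and 8 rose (median -0.55), and of 32 matrix enzymes 18 fell and 8 rose (median -0.43). The fibrillar collagen Col1a1 fell from 1398, 1133 and 1242 CPM to 270, 306 and 286 CPM (-2.13 ± 0.10, edgeR, adjusted p = 9.66e-12), and the adhesion modulator Tnc from 438, 317 and 374 CPM to 33.0, 44.7 and 46.9 CPM (-3.18 ± 0.18). Against that direction, the matricellular protein Postn rose from 366, 360 and 365 CPM to 998, 1006 and 1022 CPM (1.47 ± 0.056), Fbln1 from 24.3, 25.1 and 28.7 CPM to 107, 109 and 123 CPM (2.12 ± 0.072), and the basement membrane collagens Col4a1 (1.56) and Col4a2 (1.31) rose as well. The metalloprotease Adamts16 showed the steepest of the falls named by the rule, from 33.3, 29.3 and 26.7 CPM to 0.320, 0.331 and 0.457 CPM (-6.31 ± 0.15, edgeR, adjusted p = 5.63e-16). Adamts4 also fell (-2.11 ± 0.064), whereas Adamts1 rose (1.53 ± 0.056). The collagen receptor Itga11 fell from 32.1, 26.8 and 28.5 CPM to 3.93, 4.30 and 4.64 CPM (-2.76 ± 0.081), with 18 of 25 integrin and contractile cytoskeleton genes lower and 3 higher (1 without replicate 3 of the ginsenoside group or without composition scaling, 5 without replicate 2 of the 20 µM group).

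Fibroblast and osteoblast marker sums were lower with dexamethasone, and the adipocyte sum was higher. The summed level of 15 fibroblast markers, which share Col1a1, Col1a2, Col3a1, Dcn, Lum and Postn with the matrix list, was 7500 to 8270 CPM without dexamethasone and 4350 to 4530 CPM with it, with 9 of 13 tested members lower and 3 higher, and 1 of the 15 at 0 in all 6 libraries. The sum of 13 osteoblast and chondrocyte markers was 1260 to 1310 CPM and then 886 to 970 CPM, with 5 of 7 tested members lower, 0 higher and 1 of the 13 at 0. Their part in the matrix result was not tested. Dmp1, a bone matrix protein, fell from 5.78, 5.51 and 6.55 CPM to 0.457, 0.636 and 0.526 CPM (-3.46 ± 0.16), and the fibroblast receptor Pdgfra rose (1.34). The sum of 12 adipocyte markers went from 23.1 to 24.3 CPM up to 79.8 to 87.9 CPM, carried by Cebpa (13, 14.8 and 12.8 CPM, then 67.9, 61.5 and 62.9 CPM), Pparg (0.81 ± 0.12), Lipe (0.50) and Fabp4 (1, 1 and 1 counts, then 166, 127 and 145, at least 44.1-fold higher), while 3 of the 12 were at 0 in all 6 libraries and the defining Adipoq, Plin1 and Cidec had at most 2 counts.

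Of 44 TGF-beta and BMP genes 24 fell and 13 rose (median -0.30): the BMP antagonist Grem1 fell from 306, 281 and 285 CPM to 43.2, 38.9 and 39.0 CPM (-2.85 ± 0.11, edgeR, adjusted p = 1.09e-12), while the coreceptor Tgfbr3 rose from 16.9, 16.4 and 18.1 CPM to 61.6, 59.5 and 60.6 CPM (1.82 ± 0.061). Of 36 Wnt genes 17 fell and 10 rose. The Wnt antagonist Sfrp4 fell from a mean of 5.83 to 0.361 CPM (-4.0 ± 0.22), and the Wnt deacylase Notum rose (2.85). Notch genes fell in 7 of 18 cases and rose in 1 (11 fell without composition scaling, 2 rose without replicate 2 of the dexamethasone group and 3 without replicate 2 of the 20 µM ginsenoside group), with the Notch target Hes1 going from 42.7, 45.5 and 45.1 CPM to 16.9, 16.7 and 19.2 CPM (-1.33 ± 0.080). YAP targets fell in 12 of 24 cases and rose in 6. Ccn2, a classic YAP and TGF-beta target, was among the 6, rising from 69.4, 71.3 and 79.6 CPM to 353, 342 and 417 CPM (2.34 ± 0.077). MAPK feedback genes fell in 19 of 32 cases and rose in 8, among the latter the phosphatase Dusp1 (from a mean of 26.1 to 55.7 CPM, 1.09 ± 0.072).

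Inflammatory genes were lower more often than higher, with 18 of 33 tested cytokine and NF-kB genes down and 7 up (median -0.43). The inducible cyclooxygenase Ptgs2 fell from 21.4, 21.9 and 19.6 CPM to 3.20, 3.21 and 3.66 CPM (-2.64 ± 0.095, edgeR, adjusted p = 1.59e-13), and the chemokine Cxcl14 from 24.9, 28.6 and 26.2 CPM to 0.685, 0.865 and 1.12 CPM (-4.89 ± 0.22). The NF-kB brake Tnfaip3 fell as well (-1.09 ± 0.054), while another brake, Nfkbia, rose (0.32). Of 25 interferon response genes 6 were higher and 7 lower, near the shares over all genes tested (21.1% higher and 23% lower). Their median of 0.07 became -0.00 without composition scaling. The stress pathway of ATF4 and the unfolded protein response was lower in 26 of 38 tested genes and higher in 2 (median -0.33). Aldh1l2, a mitochondrial folate enzyme, fell from 38.5, 42.8 and 44.2 CPM to 16.4, 16.9 and 17.9 CPM (-1.30 ± 0.065) and asparagine synthetase Asns from a mean of 56.3 to 39.2 CPM (-0.52 ± 0.072). The 2 that rose were Vldlr (1.38 ± 0.087) and Cebpb (1.45).

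The metallothioneins, small proteins that buffer zinc, rose. They are close copies among which reads are divided by estimation. Mt2 rose from 57.8, 63.6 and 59.3 CPM to 1355, 1134 and 1619 CPM (4.51 ± 0.13, edgeR, adjusted p = 1.81e-14) and Mt1 from 78.1, 90.2 and 87.8 CPM to 1050, 868 and 1277 CPM (3.64 ± 0.20). The dexamethasone libraries were spread more widely than the ginsenoside libraries for both, in the same order, and all stood above them. The plasma-type glutathione peroxidase Gpx3 rose from 100, 100 and 102 CPM to 844, 733 and 813 CPM (2.98 ± 0.14), and over the list of 37 metal and antioxidant genes 17 rose and 7 fell. Kruppel-like and C/EBP factors rose in 12 of 19 cases and fell in 2. The falls were 1 without any one of the 3 ginsenoside libraries or of replicates 1 and 2 of the dexamethasone group, with the replicate block or with no filter. Clock genes rose in 10 of 22 and fell in 3, and heat shock genes rose in 9 of 25 and fell in 4.

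Whether 10 µM ginsenoside Rc alters the response was addressed by subtracting, gene by gene, the response with vehicle (dexamethasone against 0.1% DMSO) from the response with the ginsenoside. The comparisons share no library. The difference passed an adjusted p of 0.05 for 0 of 15436 genes (0%) with edgeR, DESeq2 and limma voom alike, with 327, 256 and 861 genes at an unadjusted p below 0.05. With vehicle, dexamethasone called 6755 genes (43.8%). The lists shared 5859 genes, 85.9% of the ginsenoside list and 86.7% of the vehicle list, and all 5859 had the same direction. The 961 genes called only with the ginsenoside and the 896 called only with vehicle are not thereby shown to differ, since 0 of either passed the test of the difference, and 914 of the 961 had the same sign with vehicle.

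**Figure D4:**
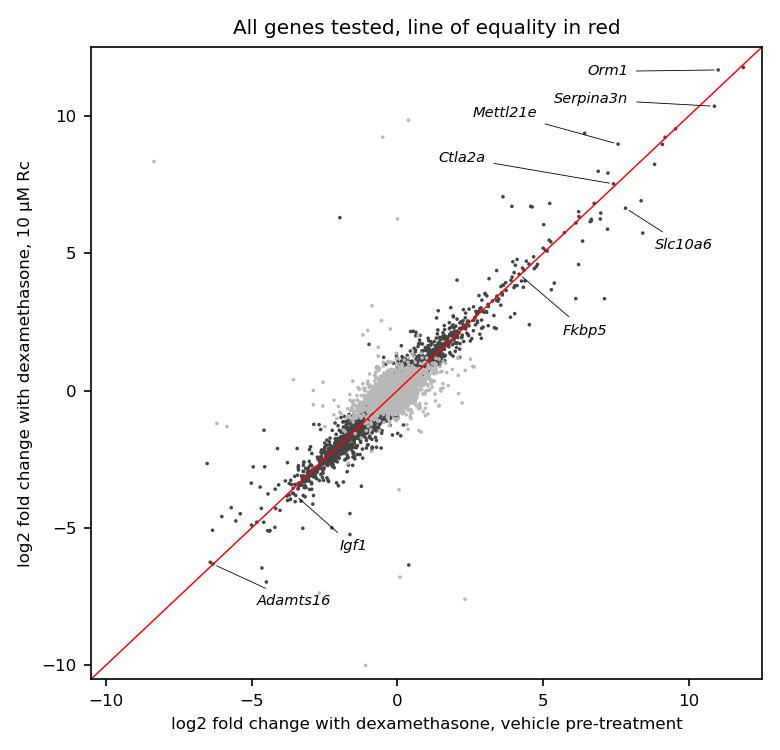
Log2 fold change with dexamethasone after 10 µM ginsenoside Rc (vertical axis) against that after vehicle (horizontal axis) for 15436 genes, dark where the former passed an adjusted p of 0.05, with the line of equality in red. All 5859 genes called in both comparisons have the same sign on both axes.

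Intervals say how large a difference these libraries leave room for. The 95% interval of the difference lay within ±0.5 (log2) for 65.6% of genes and within ±1 for 83.2%, and for 443 and 982 of the 1598 genes that changed over 2-fold. The median difference was -0.00 and the median absolute difference 0.07. For Fkbp5 the difference was 0.06 (interval -0.08 to 0.20), for Tsc22d3 0.00 (-0.16 to 0.16), for Fbxo32 0.05 (-0.28 to 0.37) and for Trim63 -0.02 (-0.44 to 0.39). Of the 24 genes always followed, 19 had intervals within ±0.5. The exceptions were Igf1 (-0.33, interval -0.91 to 0.25), Klf15 (0.15, -0.40 to 0.70), Mt1 (-0.09, -0.63 to 0.46), Mstn (0.52, -1.33 to 2.37) and Zbtb16, whose interval cannot be read because all libraries without dexamethasone were at 0.

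For the difference, 327 of 15436 genes (2.12%) had an unadjusted p below 0.05 in edgeR, Myh8 and Nr3c1 among them. That is a smaller share than a threshold of 0.05 gives when no gene differs, so the genes below are a description only. With limma voom the count was 861, and the intervals here rest on edgeR's estimate of spread. The perinatal myosin Myh8 rose by 1.2 with the ginsenoside and by 1.44 with vehicle (difference -0.24, interval -0.40 to -0.09, adjusted p = 1, edgeR). Nr3c1 fell by 0.21 with the ginsenoside and was at -0.07 with vehicle (difference -0.14, -0.28 to -0.00, adjusted p = 1, edgeR). By edgeR's unadjusted p the first gene was Gm42715 (difference -0.57), followed by the Wnt regulator Dact1 (0.53), 9430015G10Rik (0.35), the sulfotransferase Sult2b1 (-0.62) and the membrane metalloprotease Mmp15 (-0.20), each with an adjusted p of 1. The largest estimates by the naming rule were those of Mettl21e (1.40, interval -0.58 to 3.38), Slc10a6 (-1.19, -3.02 to 0.65), Orm2 (1.09, -1.55 to 3.74), Il21r (-0.94, -1.67 to -0.22) and 4930438A08Rik (0.82, 0.12 to 1.51). The first 3 of these were near the floor without dexamethasone, where intervals are wide.

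**Figure D5:**
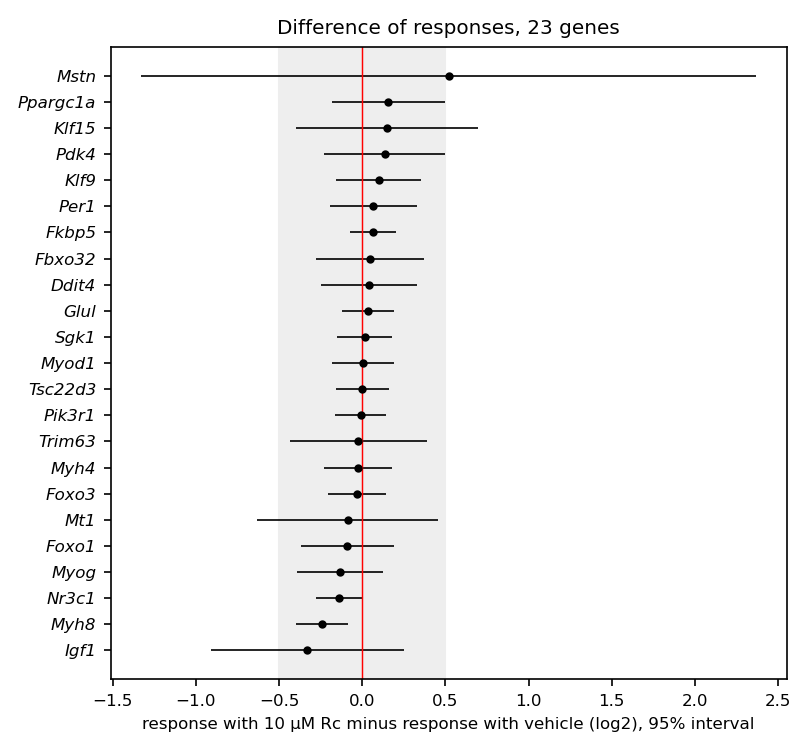
Difference of the dexamethasone response with 10 µM ginsenoside Rc minus that with vehicle (log2, horizontal axis), with 95% intervals, for 23 genes in rows, and grey between -0.5 and 0.5. Zbtb16 is left out because its libraries without dexamethasone were at 0. All intervals but those of Myh8 and Nr3c1 include 0, and Mstn has the widest.

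Over gene lists, the median difference over a list lay between -0.13 (endothelial and macrophage markers) and 0.22 (sterol synthesis), and was under 0.15 in size for 47 of 48 lists. Sterol synthesis had a median response of 0.79 with vehicle, 0.98 with 10 µM and 1.23 with 20 µM ginsenoside Rc, and 0 of its 26 members passed the test of the difference. The dose comparison, the response with 20 µM minus that with 10 µM, also passed for 0 of 15436 genes (0%) with edgeR, DESeq2 and limma voom, with 515, 411 and 883 genes at an unadjusted p below 0.05, although dexamethasone called 7555 genes (48.9%) at 20 µM. Its smallest p values belonged to Lrrc14b (1.11), B230369F24Rik (1.02), Zxda (-0.96), and Gm10240 and Gm13370, which had identical values (-1.37). Whether those last genes share reads was not tested. The 515 genes with edgeR (3.34%) were again a smaller share than a threshold of 0.05 gives when no gene differs.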

How the data were processed

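The labels' protocols describe directional poly-A libraries read as 100 bp pairs. Per the submitters' processing notes, the build was GRCm38 (mm10) and the tools were STAR 2.7.3a, RSEM 1.3.3, Trim Galore 0.6.5 and FastQC 0.11.9. The authors deposited expected counts, which RSEM estimates per gene, for 48795 Ensembl IDs in 18 libraries, and 9.27% of values were not whole. No label states the annotation release or the strand setting, so overlapping and antisense genes may share reads. RSEM divides reads between near-identical genes by estimation. GENCODE M21 (GRCm38) named 48435 of the IDs, and 44 tested genes had no name.

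Rounded counts passed filterByExpr for 15436 of 26796 genes that had reads. TMM factors set the scale, and edgeR 4.0.16 (R 4.3.3) estimated each group's mean over the 18 libraries jointly, by robust quasi-likelihood with glmQLFTest, Benjamini-Hochberg adjustment and a threshold of 0.05. Standard errors come from the log2 fold change and its F statistic. CPM are TMM scaled, n = 3 per group, with a floor of 3 counts per library. Floors and counts cover counting error only. The edgeR test of the main comparison was checked on simulated data, and the tests of the differences of responses and the other tools were not. Alternatives were DESeq2 1.42.0, voom in limma 3.58.1, other scalings, no filter, a replicate block, only the compared groups, a 1.2-fold minimum and leaving out libraries.

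The comparison, the 48 lists and the rule for named genes were chosen with earlier results of these data known. Named genes had to pass, reach a mean log2 CPM of 1 and have groups without overlap: the 12 largest rises, the 12 largest falls and the 2 smallest adjusted p of each list, with 24 genes always followed and, per interaction, the 5 smallest p and 5 largest estimates. Other list members were named after their values were seen. Some genes of the lists are counted but not reported here by name.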

Additional observations from a re-analysis of the deposited data

How the results depend on the processing

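The main counts kept to within 1.5 times under most alternatives: 6830 genes were called with median-ratio size factors, 6823 without composition scaling, 6376 without a filter, 6752 with DESeq2, 8636 with limma voom and 8076 when only the compared groups were fitted. Against a minimum change of 1.2-fold 3517 passed (1417 higher, 2100 lower). Leaving out 1 library gave 5915 to 8219 calls (2824 to 4042 higher, 3091 to 4177 lower), with 554 to 595 genes higher and 974 to 1052 lower by over 2-fold, and 0 to 0 calls for either difference of responses. The 8219 came without replicate 2 of the 20 µM group, and leaving out any of the 6 compared libraries gave at most 6263. Without composition scaling the medians of 4 lists changed sign: proteasome (-0.045), mTOR (-0.007), amino acid (-0.006) and interferon genes (-0.003). Fitting only the groups of the dose comparison called 2 genes, Gm10240 and Gm13370 (-1.38, edgeR, adjusted p = 0.042), named after their values were seen. At 15 counts 10 genes were switched off in place of 4. The palindrome was in a window of 0.00907% of matched tested genes and of 0% of matched genes that rose over 8-fold. The causes were not tested. A replicate block called 6743 genes, 6654 of them shared, and 0 differences. Same-numbered libraries of the compared groups correlated at 0.217, -0.251 and 0.211 in their deviations, and those of vehicle and dexamethasone at -0.048, -0.102 and -0.02. The numbers were therefore not taken as pairs for these responses. Across the ginsenoside the same numbers gave 0.11, 0.231 and 0.141 without dexamethasone and 0.45, 0.143 and 0.11 with it. All of these were positive, so the number may carry some structure there, which only the replicate block allows for. Of the single named genes, 1972 results kept direction and side of the threshold over the alternatives, 32 lost the call, 5 gained it and 0 reversed.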

Other observations

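Some genes were silent in 1 group and clearly counted in the other. By the criterion of at most 3 counts in each library of one group and at least 30 in each of the other, 18 genes were switched on by dexamethasone and 4 switched off, and at 15 counts in place of 30 these were 25 and 10. Besides the acute phase genes, those switched on included the hypoxia-inducible factor gene Hif3a (0, 3 and 0 counts, then 65, 64 and 84), the collagenase Mmp8 (0, 1 and 0, then 58, 49 and 58), the ribonuclease Rnase2a (0, 0 and 0, then 119, 72 and 95) and the kallikrein Klk1b21 (0, 0 and 0, then 83, 73 and 99). Those switched off were Padi1 (43, 46 and 37 counts, then 2, 2 and 0), Prss35 (54, 33 and 52, then 2, 1 and 3), the apelin receptor Aplnr (31, 32 and 43, then 2, 1 and 0) and the long noncoding RNA 1600027J07Rik (35, 33 and 39, then 2, 1 and 0).

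Of 1045 long noncoding RNAs tested, 116 rose and 154 fell (25.8% called) at a median log2 CPM of -0.61, and of 13434 protein coding genes 47.8% were called at a median of 4.6. The part of level in these shares was not tested. The imprinted RNA H19 went from 15380, 15770 and 15870 CPM to 28410, 28180 and 30110 CPM (0.88 ± 0.12, edgeR, adjusted p = 7.54e-06). The nuclear RNAs Malat1 (593, 374 and 476 CPM, then 1127, 1102 and 823 CPM) and Neat1 (313, 249 and 289 CPM, then 632, 562 and 479 CPM) were also higher with no overlap. The imprinted gene Mest went the other way, from 33.7, 34.6 and 35.1 CPM to 2.81, 3.03 and 2.79 CPM (-3.58 ± 0.14).

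Further genes that stood out among the induced, chosen after their values were seen, were the selenium carrier Selenop (58.1, 59.0 and 59.9 CPM, then 989, 929 and 940 CPM), the G protein regulator Rgs2 (3.21, 2.72 and 3.18 CPM, then 72.8, 74.1 and 72.1 CPM), xanthine dehydrogenase Xdh (6.35, 5.83 and 6.10 CPM, then 67.6, 68.4 and 66.9 CPM) and the vasoconstrictor endothelin gene Edn1 (2.57, 2.42 and 2.13 CPM, then 20.6, 19.7 and 18.3 CPM). With vehicle in place of the ginsenoside, Selenop went from 61.2, 60 and 64.6 CPM to 1000, 812 and 950 CPM.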
